A study of Mus musculus with 6 samples.

Results

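Organoids in which an active Braf^V637E fusion was opposed by a MEK inhibitor and a PI3K inhibitor are compared here with organoids in which the same fusion was left unopposed, over all genes of the count table. The comparison takes 4 of the 6 samples of the series, chosen by their column labels: 2 given 4-hydroxytamoxifen with both inhibitors (PD+LY) and 2 given 4-hydroxytamoxifen (4OHT). The organoids were grown from mouse embryonic stem cells (G4 RosaLuc) that carry a TRE-Nkx2-1-Pax8 cassette and the fusion gene bTg-NES-BrafV637E-ERT2, in which 5 days of doxycycline at 1 µg/ml switch on Nkx2-1 and Pax8 and 8-Br-cAMP then matures thyroid follicles. In both groups 8-Br-cAMP was present and 4OHT at 1 µM released the Braf^V637E-ERT2 fusion, the mouse form of human BRAF^V600E, from its inactive state. PD+LY cultures received, together with 4OHT, PD0325901 (a MEK inhibitor) at 250 nM and LY204002 (the PI3K inhibitor, spelled as in the labels) at 5 µM for 3 days. All RNA was taken at day 31. The remaining 2 samples (cAMP) had 8-Br-cAMP and no 4OHT, and they enter the statistical model for its estimate of the spread.

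The model has limits that belong to every value. The line is clonal, the fusion is driven by a bovine thyroglobulin promoter and is thus made mainly in cells that use this promoter, and enrichment for follicles by filtering does not remove all non-thyroid cells. Each library pools several wells. The study's methods say that RNA-seq experiments were done in duplicate, and that all data come from 3 or more independent experiments. Neither statement says whether the duplicates are separate differentiations. The p values therefore measure the spread between these samples, which may be technical. The labels give 5 days of 4OHT and 3 days of 4OHT with inhibitors, while the methods place 4 days of 4OHT ahead of the inhibitors. The groups may therefore differ in days of 4OHT, which cannot be told apart from the inhibitors. Both drugs were given together, so their separate contributions cannot be told apart either. In bulk RNA, fewer cells of a type and less RNA per cell cannot be told apart.

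BRAF, MEK and ERK form a kinase chain in which each member phosphorylates the next, and active ERK switches on genes that restrain the chain, among them Sprouty proteins and dual-specificity phosphatases. PI3K acts beside it through AKT, which drives nutrient use through mTOR and holds FOXO transcription factors out of the nucleus. In thyroid follicular cells, strong ERK signaling is known for lowering the genes of iodide handling and hormone synthesis.

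The 4OHT libraries held 14898409 and 18246077 counts and the PD+LY libraries 19508401 and 20637959, so that 1 count equals 0.0486 to 0.0667 CPM (counts scaled by library size with TMM factors) in these 4 libraries. Of 15256 genes with enough counts to test, 359 (2.35%) were higher and 748 (4.90%) were lower in PD+LY than in 4OHT, together 1107 (7.26%). A gene counts as changed at an adjusted p under 0.05 (edgeR's quasi-likelihood test with Benjamini-Hochberg adjustment) and at least a 2-fold difference. A change past 4-fold was seen in 257 genes that fell and in 66 that rose. The median log2 fold change over all tested genes was 0.01. These counts lean on the 4OHT duplicates: without 4OHT replicate 2 they were 205 and 427. A 2-sided exact permutation test of 1 gene with 2 against 2 samples cannot go under p = 0.3333. The calls therefore depend on a model that joins each gene's own spread (3 residual degrees of freedom) with spread shared across genes.

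To read the changes by function, 48 gene lists were counted, and 31 of them held more falls than rises, 6 more rises than falls, and 11 equal numbers, of which 6 had no changed gene. Rises outnumbered falls in the lists of thyroid differentiation, fibrillar matrix, contractile proteins, WNT components, lysosome and naive pluripotency genes, the last 2 with 1 rise each (2.33% and 5.56%, against 2.35% of all tested genes). Cytokines with NF-kB targets, epithelial junctions, ATF4 targets and immediate early genes held the most falls by number when all libraries were used. By share of tested genes the order differs, since the lists differ in size. The largest shares of falls were in cytokines with NF-kB targets (51.6%), ERBB genes (46.2%), immediate early genes (40.0%) and ERK feedback genes (38.5%). Of all tested genes 4.90% fell. With 10 lists of cell type markers added, 198 of the 1107 changed genes stand in at least 1 list. Of all 15256 tested genes 1271 do.

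**Figure D1:**
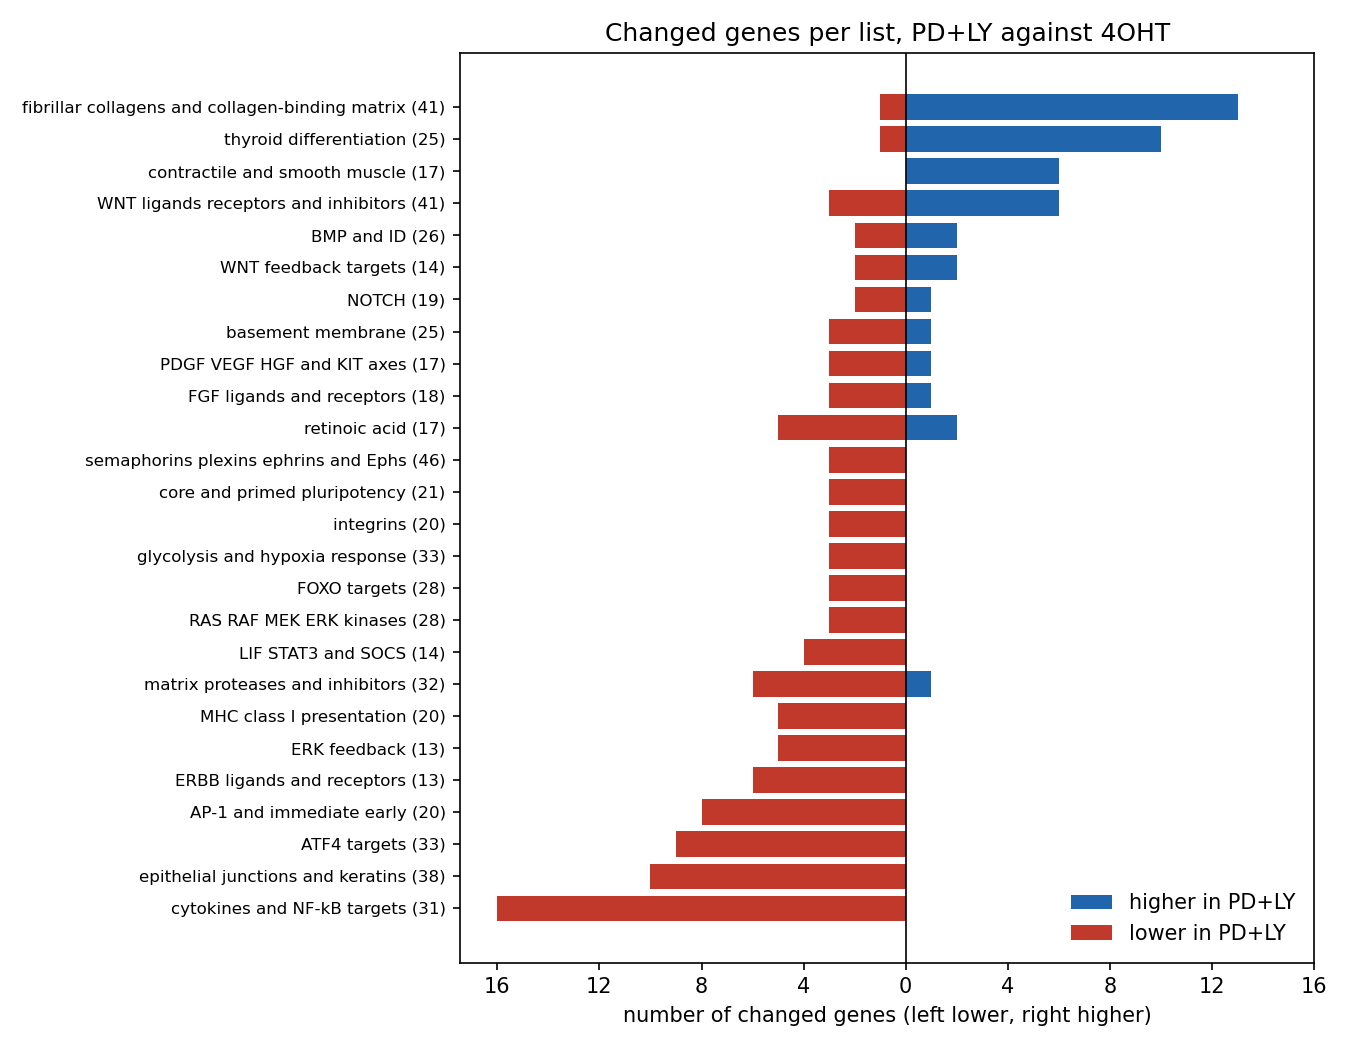
Number of genes changed in PD+LY against 4OHT in each list with at least 3 changed genes, drawn to the right for rises and to the left for falls, with the number of tested genes after the list's name. The fibrillar matrix list reaches 13 rises and the list of cytokines with NF-kB targets 16 falls.

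Among changed genes averaging 50 counts or more, the largest fall was in a negative feedback gene of ERK. Of 13 such feedback genes tested 5 fell (38.5%, against 4.90% of all tested genes) and none rose. The median log2 fold change of the 13 was -0.70. Spry4, a Sprouty inhibitor of receptor signaling to RAS, had 21.1 and 20.1 CPM in 4OHT and 0.255 and 0.243 CPM in PD+LY. The PD+LY libraries were close to the floor of 3 counts, at 5 counts each, and far below both 4OHT and both cAMP libraries (21.3 and 17.4 CPM). Spry4 fell by 6.33 on the log2 scale (SE 0.27, Benjamini-Hochberg adjusted p 1.18e-07 in edgeR's quasi-likelihood test). Dusp4, a nuclear phosphatase of ERK, went from 55.4 and 61.7 CPM in 4OHT to 3.41 and 4.28 CPM in PD+LY, and Dusp6, its cytoplasmic relative, from 27.6 and 29.3 to 5.14 and 5.30 CPM. Like all 1107 changed genes, neither had overlapping groups. The fall was larger for Dusp4 (-3.92, SE 0.17) than for Dusp6 (-2.45, SE 0.14), a difference between genes that was not tested. Spry2 had 52.04 and 48.7 CPM in 4OHT and 29.4 and 32.5 CPM in PD+LY, a smaller difference (-0.70, adjusted p = 0.00148 in edgeR's quasi-likelihood test) that missed the 2-fold limit. Spred1, which keeps RAF from being activated by RAS, had a log2 fold change of -1.16, and of -0.85 without PD+LY replicate 2, where it was not called.

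Within the ETS family 2 of 13 tested genes fell (15.4%, against 4.90% of all tested genes). These were Etv4 and Etv1, both PEA3-type factors downstream of ERK. Etv4 stood at 36.8 and 36.6 CPM in the 4OHT libraries and 0.611 and 0.389 CPM in the PD+LY libraries. The cAMP libraries, at 22.1 and 20.03 CPM, lay between the other groups. Its log2 fold change of -6.18 (SE 0.22, Benjamini-Hochberg adjusted p 2.98e-08 in edgeR's quasi-likelihood test) makes it 72.7-fold lower. Etv1 had 16.5 and 14.9 CPM in 4OHT and 5.30 and 3.94 CPM in PD+LY (-1.77, SE 0.20). Etv5, the remaining PEA3 member and a marker of lung epithelium, behaved otherwise: 339 and 343 CPM in 4OHT, 385 and 424 CPM in PD+LY and 526 and 469 CPM in cAMP. Its PD+LY libraries lay above 4OHT, yet the log2 fold change of 0.24 had an adjusted p of 0.0755 in edgeR's quasi-likelihood test. Ets2 also missed the threshold (0.15).

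Immediate early genes, transcribed within minutes of a growth signal, fell in 8 of 20 cases (5 without 4OHT replicate 2), with a list median of -0.75. With all libraries 40.0% of this list fell, against 4.90% of all tested genes. Egr1, a zinc finger factor, had 8.61 and 10.4 CPM in 4OHT and 0.917 and 0.973 CPM in PD+LY, and Ier3 had 58.98 and 70.98 and 15.3 and 14.4 CPM. Both were lower in each PD+LY library than in any 4OHT or cAMP library, with log2 fold changes of -3.32 and -2.13. Fos went from 9.01 and 12.2 to 3.67 and 5.06 CPM (-1.28) and Junb from 31.6 and 35.6 to 14.5 and 16.3 CPM (-1.13). Fosl1, an AP-1 subunit, had 11 and 30 counts in 4OHT and 0 in each PD+LY library, which makes it at least 7.97-fold lower when 3 counts per library are taken as the floor, but it was not called without 4OHT replicate 2, where the adjusted p was 0.0592 (edgeR quasi-likelihood). Jun had 13.1 and 19.2 CPM in 4OHT and 21.2 and 22.2 CPM in PD+LY, which was the higher group without overlap, with an adjusted p of 0.192 in edgeR's quasi-likelihood test. For Myc the log2 fold change was -1.01, and it was not called without 4OHT replicate 2 (-0.80) or without PD+LY replicate 1 (-0.85).

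**Figure D2:**
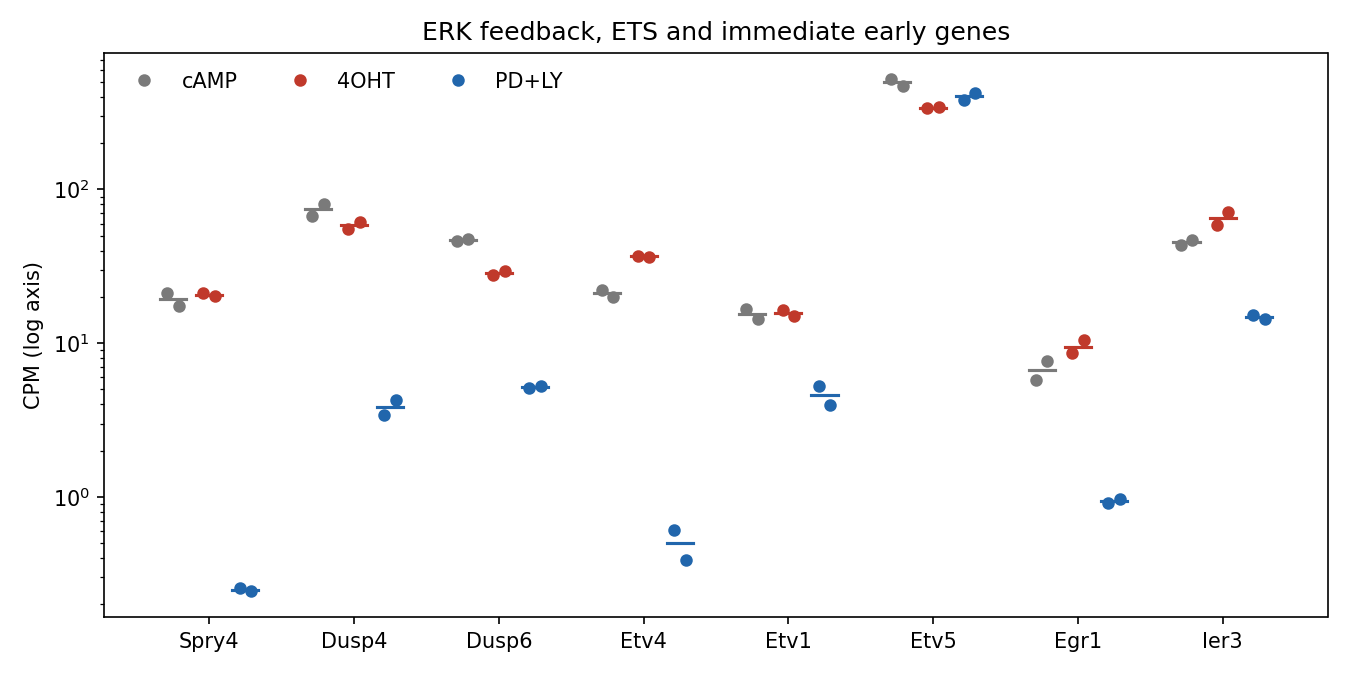
Level of 8 ERK feedback, ETS and immediate early genes in each library, in CPM on a log axis, with 1 point per library and a short bar at the mean of each group. Spry4 and Etv4 drop below 1 CPM in both PD+LY libraries, while the 3 groups of Etv5 lie between 339 and 526 CPM.

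Several growth factors that act through ERBB receptors fell, as did Egfr. 6 of 13 tested ERBB ligands and receptors fell (46.2%, against 4.90% of all tested genes) and none rose. Areg (amphiregulin) had 30.4 and 35.5 CPM in 4OHT, 5.04 and 3.84 CPM in PD+LY and 10.1 and 9.50 CPM in cAMP. Ereg (epiregulin) had 9.34 and 8.67, 1.22 and 0.340 and 2.58 and 1.95 CPM in the same order of groups. The PD+LY libraries were the lowest of all 6 for both ligands, and the log2 fold changes were -2.89 (SE 0.18) for Areg and -3.53 (SE 0.41) for Ereg, the latter -4.70 without PD+LY replicate 1 and -2.87 without PD+LY replicate 2. Nrg1, a ligand of ERBB3 and ERBB4, fell by 1.98, and Egfr itself (-1.43, from 19.8 and 21.7 to 9.17 and 6.22 CPM). Erbb2, the partner of the other ERBB receptors, had 25.1 and 29.3 CPM in 4OHT and 31.2 and 34.7 CPM in PD+LY (0.28, not called). Fgfr2, the FGF receptor of many epithelia, went the opposite way to Egfr: 36.5 and 42.1 CPM in 4OHT and 103 and 101 CPM in PD+LY. Its PD+LY libraries were above every 4OHT and cAMP library (56.2 and 61.8 CPM in cAMP), and it rose by 1.38 (SE 0.11, Benjamini-Hochberg adjusted p 1.58e-05 in edgeR's quasi-likelihood test). Among 18 FGF ligands and receptors 1 rose and 3 fell (5.56% and 16.7%, against 2.35% and 4.90% of all tested genes). Fgfr4 fell by 1.07, and Fgf15, a ligand with 2.80 and 2.19 CPM in 4OHT (-1.63). Vegfa, the main growth factor for vessels, had 316 and 411 CPM in 4OHT against 127 and 153 CPM in PD+LY (-1.38, SE 0.14), and Pdgfrb, a PDGF receptor of mesenchymal cells, fell by 1.26. Of 17 genes of the PDGF, VEGF, HGF and KIT axes 3 fell and 1 rose (0 without 4OHT replicate 2), the rise being Kitl (1.40, and 1.01, not called, without 4OHT replicate 2). The third fall, Pdgfb (-1.05), was not called without 4OHT replicate 2 (-0.82). With all libraries 17.6% of this list fell and 5.88% rose, against 4.90% and 2.35% of all tested genes.

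Genes of the kinase chains themselves were counted next. Of 28 tested genes for RAS, RAF, MEK, ERK and p38 kinases 3 fell (10.7%, against 4.90% of all tested genes; 1 without 4OHT replicate 2, 1 without PD+LY replicate 1), with a median of 0.04 and 6 positive at an adjusted p under 0.05 and no fold limit (21.4%, against 10.7%), and all 3 of them encode p38 kinases: Mapk12 (-1.56), Mapk11 (-1.38, not called without PD+LY replicate 1, at -1.0, or without 4OHT replicate 2, at -1.19) and Mapk13 (-1.04, likewise, at -0.93 and -0.92). Map2k1, which encodes the MEK1 target of PD0325901, had 153 and 149 CPM in 4OHT and 173 and 176 CPM in PD+LY (0.21, not called). Reads of Braf, which can come from the endogenous gene or from the fusion, gave 61.8 and 61.4 CPM in 4OHT and 59.2 and 48.1 CPM in PD+LY (-0.20, not called). PI3K, AKT and mTOR genes had 1 fall (2 without PD+LY replicate 2) among 27 tested (3.70%) and a median of 0.12. Over all tested genes the share of falls was larger, at 4.90%. The PI3K gene that fell with all libraries, Pik3r5, encodes a regulatory subunit of PI3K gamma. It had 3.14 and 3.84 CPM in 4OHT and 0.611 and 0.389 CPM in PD+LY (-2.79, SE 0.39). Pik3ca (0.21) and Akt1 (-0.03) were not called, and Pik3r1 (0.54, Benjamini-Hochberg adjusted p 0.0109 in edgeR's quasi-likelihood test) stayed under 2-fold.

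Targets of FOXO factors, which AKT restrains, differed in both directions. Of 28 tested, none rose and 3 fell (10.7%, against 4.90% of all tested genes), and the median was -0.04. At an adjusted p under 0.05 and no fold limit 7 were negative (25.0%, against 12.1% of all tested genes) and 5 positive (17.9%, against 10.7%). Trim63, a ubiquitin ligase of muscle protein breakdown, had 9.14 and 8.83 CPM in 4OHT and 3.01 and 2.29 CPM in PD+LY, and Bcl6, a transcriptional repressor, 14.8 and 16.2 and 6.93 and 5.15 CPM. These falls (-1.76 and -1.36) have no overlap between the groups, which holds for all 1107 changed genes. Cdkn1b, which encodes the cell cycle inhibitor p27, had 57.7 and 61.7 CPM in 4OHT and 77.6 and 66.7 CPM in PD+LY (0.27, not called), and Ccng2 had 30.2 and 37.1 and 22.7 and 20.4 CPM (-0.64, under 2-fold). Foxo1 (0.09) and Bcl2l11 (0.00) were not called. In the insulin and IGF axis no gene among 15 tested was called in either direction by edgeR, 7 had an unadjusted p under 0.05, and DESeq2 called 0. The median there was -0.23, and without PD+LY replicate 1 the falls were 2.

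Amino acid and stress genes under ATF4, a factor controlled at translation that raises genes of amino acid supply, formed one of the larger groups of falls. Of 33 tested 9 fell (27.3%, against 4.90% of all tested genes) and none rose. In edgeR 22 (66.7%, against 12.1% of all tested genes) had a negative log2 fold change with an adjusted p under 0.05. The list median was -0.74. Atf4 itself had 308 and 321 CPM in 4OHT, 148 and 143 CPM in PD+LY and 246 and 268 CPM in cAMP. Each PD+LY library was lower than all 4 others, and Atf4 fell by 1.11 (SE 0.09, Benjamini-Hochberg adjusted p 1.36e-05 in edgeR's quasi-likelihood test). Nupr1, a stress-induced nuclear protein, fell by 2.16, Chac1, which breaks down glutathione (-1.95), Ddit4, an inhibitor of mTOR (-1.90), Trib3 (-1.77) and Mthfd2, a mitochondrial folate enzyme (-1.45). Asns, asparagine synthetase, stood apart with 412 and 382 CPM in 4OHT and 582 and 638 CPM in PD+LY. Its groups do not overlap in the upward direction, and the log2 fold change of 0.62 stayed under 2-fold. Psat1, of serine synthesis, had -0.74, also under 2-fold. Among tRNA synthetases Cars fell (-1.16), and 11 of 20 (55.0%, against 12.1% of all tested genes) were negative with an adjusted p under 0.05 (edgeR, median -0.35).

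In lipid, sugar and redox metabolism the share of falls was 4.0% for sterol synthesis, 5.26% for fatty acid synthesis (1 gene; 0 without 4OHT replicate 1, 0 without 4OHT replicate 2, 2 without PD+LY replicate 1, 0 without PD+LY replicate 2), 9.09% for glycolysis and hypoxia genes and 8.33% for NRF2 targets, against 4.90% of all tested genes. The sterol synthesis list had 1 call among 25 tested and 16 negative values (64.0%, against 12.1% of all tested genes) with an adjusted p under 0.05 (edgeR, median -0.53). That call, Lss (-1.0), sits at the threshold and was not called without cAMP replicate 2 (-1.0), 4OHT replicate 1 (-0.97) or PD+LY replicate 1 (-0.96), without the filter, or in the fit to 4 libraries. Insig1, a brake on sterol synthesis, had 235 and 244 CPM in 4OHT and 166 and 141 CPM in PD+LY (-0.64). Its PD+LY libraries lay below the other 4. In the fatty acid list 9 genes were negative and 1 positive at an adjusted p under 0.05 and no fold limit (47.4% and 5.26%). The fall was Thrsp (-1.52), not called without either 4OHT replicate or PD+LY replicate 2 (-1.31). Scd1, a desaturase, had -0.96 (and -1.06 without PD+LY replicate 1, where it was called), while Fasn was not called (0.05). Among 33 glycolysis and hypoxia genes 3 fell (5 without 4OHT replicate 1) and 22 (66.7%) were negative with an adjusted p under 0.05 (edgeR, median -0.42). Adm, the vasodilator adrenomedullin, went from 35.2 and 44.6 to 9.52 and 8.36 CPM (-2.16), Ankrd37 fell by 1.25 and Aldoc, an aldolase (-1.16). Pgk1 (-0.72) and Ldha (-0.40) differed by less than 2-fold, and Slc2a1, the glucose carrier, was not called (-0.26). NRF2 targets, of which 9 were negative and 5 positive at an adjusted p under 0.05 and no fold limit (37.5% and 20.8%, against 12.1% and 10.7%), held 2 falls among 24, Osgin1 (-2.56) and Hmox1, heme oxygenase (-1.18, from 98.7 and 108 to 42.7 and 48.2 CPM).

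Several large housekeeping groups had no changed gene. None of 45 ribosome biogenesis genes (median -0.01), 42 ribosomal protein genes (-0.12) or 39 respiratory chain subunits (-0.03) was called by edgeR, where 9, 5 and 9 had an unadjusted p under 0.05 and DESeq2 called 0, 0 and 0. Ribosomal proteins have many near-identical pseudogenes, so their counts are uncertain. Lysosome genes had 1 rise among 43, Mitf, which encodes a factor for lysosome and pigment cell genes (15.7 and 13.3 CPM in 4OHT, 39.8 and 29.2 CPM in PD+LY, 1.25).

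Ccnd1, the cyclin that growth factor signaling raises in G1, had 54.3 and 50.6 CPM in 4OHT and 18.4 and 14.8 CPM in PD+LY. Both PD+LY libraries were under a level that the 4OHT and cAMP libraries (56.5 and 61.6 CPM) all exceeded, and Ccnd1 fell by 1.66 (SE 0.14, Benjamini-Hochberg adjusted p 1.58e-05 in edgeR's quasi-likelihood test). It was the 1 call among 20 G1 cyclins and inhibitors (5.0%; falls: 2 without PD+LY replicate 1; rises: 1 without PD+LY replicate 2), while Cdkn1a, for p21, had -0.56. Of all tested genes 4.90% fell, near the 5.0% of the G1 list, and 2.35% rose. None of 29 DNA replication genes (median 0.04) and none of 31 mitosis genes (-0.18) was called by edgeR, with 9 and 13 at an unadjusted p under 0.05 and 0 and 0 called by DESeq2. At an adjusted p under 0.05 in edgeR and no fold limit 7 mitosis genes were negative (22.6%, against 12.1% of all tested genes) and 0 positive, and 2 and 3 replication genes (6.90% and 10.3%, against 12.1% and 10.7%). Mki67, a proliferation marker, had 243 and 254 CPM in 4OHT and 246 and 223 CPM in PD+LY (-0.08), and Pcna, the replication clamp, 188 and 184 and 208 and 194 CPM (0.11). In the BCL2 family Hrk, a pro-death member, fell by 1.97, and Bmf, another, had 0.58, under 2-fold. Among p53 targets Gdf15, a stress hormone that ATF4 also controls, went from 39.6 and 48.8 to 8.10 and 6.76 CPM (-2.57), while Mdm2 was not called (0.05). The median of 23 tested p53 targets was -0.43. At an adjusted p under 0.05 in edgeR and no fold limit 12 were negative (52.2%) and 2 positive (8.7%). By the same limit 5 of 14 BCL2 family genes were negative (35.7%) and 1 positive (7.14%). Over all tested genes these shares were 12.1% and 10.7%.

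Cytokines and NF-kB targets, a list that also holds receptors, enzymes and transcription factors, had the largest number of falls of the lists when all libraries were used. 16 of 31 tested cytokine and NF-kB target genes fell (51.6%, against 4.90% of all tested genes), none rose, and the list median was -1.01. That count leans on 1 library: it was 7 without 4OHT replicate 2, where ATF4 targets had 8. Cxcl12, a chemokine of stromal cells, had 36.6 and 41.5 CPM in 4OHT and 17.7 and 14.4 CPM in PD+LY, Vcam1, an adhesion receptor for leukocytes, 17.3 and 21.1 and 8.35 and 6.52 CPM, and Cebpd, a transcription factor of acute inflammation, 9.34 and 13.2 and 3.36 and 3.36 CPM. The 3 genes were lower in both PD+LY libraries than in any other library, with log2 fold changes of -1.28, -1.37 and -1.75. Ccl7 fell by 2.68 from a low level (2.27 and 1.97 CPM in 4OHT) and Tnfrsf12a, the TWEAK receptor (-1.25). The fall of Cxcl1 (-2.21) rested on 4OHT replicate 2 (3.80 and 11.1 CPM in 4OHT) and was -1.22, not called, without it. Ptgs2, cyclooxygenase, had -1.01, and -0.72 without PD+LY replicate 2 and -0.80 without 4OHT replicate 2, where it was not called. Nfkbia, an inhibitor of NF-kB that NF-kB itself raises, was not called (-0.03). In the list of LIF, STAT3 and SOCS genes 4 of 14 fell (28.6%, against 4.90% of all tested genes) and none rose. Of the 14, 5 were positive (median -0.16). Lif had 23.6 and 27.5 CPM in 4OHT and 10.4 and 8.27 CPM in PD+LY (-1.46), and Socs3, a feedback inhibitor of cytokine receptors, 153 and 167 and 52.4 and 56.2 CPM (-1.56). The levels of Socs3 in cAMP (77.8 and 77.8 CPM) lay between those of PD+LY and 4OHT. Clcf1, a ligand of the same receptor family, fell by 1.91. MHC class I genes had 5 falls (2 without 4OHT replicate 2) among 20, with Tap1, a peptide transporter, at -1.18, and Cd274, which encodes PD-L1, at -1.80 (9.01 and 9.76 CPM in 4OHT, 3.16 and 2.24 CPM in PD+LY). With all libraries 25.0% of the class I list fell, against 4.90% of all tested genes. Class I genes are near-identical copies whose counts are uncertain. Interferon response genes had 1 rise (0 without 4OHT replicate 1, 0 without 4OHT replicate 2, 0 without PD+LY replicate 1, 2 without PD+LY replicate 2) and 1 fall (2 without PD+LY replicate 2) among 28 (each 3.57%, against 2.35% higher and 4.90% lower of all tested genes), with a median of 0.37. The fall was Irf8, an immune cell factor (-1.31), and the rise Ifih1, a sensor of viral RNA (1.44), was not called by DESeq2 or without either 4OHT replicate or either PD+LY replicate (between 1.14 and 1.77).

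Thyroid genes rose in 10 of 25 tested cases (40.0%, against 2.35% of all tested genes), with a median of 0.30. In the same list 1 fell (4.0%, against 4.90%). Iyd, which recovers iodide from spent precursors, had 3.80 and 6.31 CPM in 4OHT, 23.5 and 13.5 CPM in PD+LY and 10.4 and 7.31 CPM in cAMP. Both PD+LY libraries were above the other 4, and PD+LY replicate 1 was the higher of its pair. Iyd rose by 1.85 (SE 0.30, Benjamini-Hochberg adjusted p 0.00131 in edgeR's quasi-likelihood test). The same replicate leads in Tg, thyroglobulin (514 and 693 CPM in 4OHT, 1870 and 907 CPM in PD+LY), whose rise of 1.20 was 0.59, not called, without PD+LY replicate 1, was 1.00, not called, without 4OHT replicate 1, and was not called by DESeq2. Tshr, the receptor for TSH, was even across PD+LY (13.2 and 10.99 CPM) and uneven across 4OHT (1.67 and 3.95 CPM), and its rise of 2.08 became 2.86 without 4OHT replicate 2. Trh, the hypothalamic releasing hormone, fell from 15.4 and 17.4 to 1.32 and 1.02 CPM (-3.81) and had 142 and 154 CPM in cAMP. PD+LY was the lowest and cAMP the highest of the 3 groups for Trh. Dio2, an activating deiodinase, had 16.1 and 20.1 CPM in 4OHT and 29.4 and 20.3 CPM in PD+LY and was not called (0.45). Among the factors that define thyroid cells, Nkx2-1 (9.54 and 13.8 CPM in 4OHT, 15.1 and 11.1 CPM in PD+LY) had overlapping groups, Pax8 was not called (-0.34), and Foxe1 rose by 1.28 but was not called without either 4OHT replicate or PD+LY replicate 1 (1.04).

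Matrix genes had the largest number of rises of the lists when all libraries were used, and this count leans on 1 library. 13 of 41 tested genes for fibrillar collagens and their partners rose (6 without PD+LY replicate 1, where thyroid differentiation genes had 8) and 1 fell (2 without PD+LY replicate 1), with a median of 0.62. With all libraries 31.7% of this list rose and 2.44% fell, against 2.35% and 4.90% of all tested genes. The share of rises was larger in the thyroid (40.0%) and contractile (35.3%) lists. Col3a1, a fibrillar collagen of soft tissue, had 450.4 and 523 CPM in 4OHT, 1388 and 1286 CPM in PD+LY and 242 and 250.2 CPM in cAMP. Postn, periostin, had 50.2 and 49.3, 231 and 153 and 28.6 and 37.8 CPM in that order. PD+LY was the highest and cAMP the lowest of the 3 groups for both genes. Col3a1 rose by 1.46 (SE 0.09, Benjamini-Hochberg adjusted p 2.92e-06 in edgeR's quasi-likelihood test) and Postn by 1.95 (SE 0.18). Dpt, dermatopontin, went from 1.27 and 0.878 to 13.9 and 11.7 CPM, and Tnn, a tenascin, from 2.47 and 2.36 to 15.5 and 7.73 CPM. Aspn, asporin, a small leucine-rich proteoglycan, had 0.467 and 0.549 CPM in 4OHT and 12.6 and 4.62 CPM in PD+LY. Its PD+LY libraries differ strongly from each other, and its rise of 4.06 was 3.16 without PD+LY replicate 1. Col1a1, the most abundant gene of the mesenchymal markers, had 871 and 881 CPM in 4OHT and 1429 and 1262 CPM in PD+LY, which is under 2-fold (0.62, edgeR adjusted p = 0.00161). Lox, which cross-links collagen, rose by 1.12 and was 0.60, not called, without PD+LY replicate 1. Col5a3, a minor collagen chain, fell by 1.12.

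Contractile genes rose in 6 of 17 cases (2 without PD+LY replicate 1) and none fell (median 0.73). With all libraries 35.3% of this list rose, against 2.35% of all tested genes. Actg2, enteric smooth muscle actin, had 28.02 and 19.6 CPM in 4OHT and 114 and 78.00 CPM in PD+LY (2.02, SE 0.24), and Cnn1, calponin, 10.3 and 8.39 and 27.05 and 20.8 CPM (1.36). Each PD+LY library exceeded every 4OHT and cAMP library in these 2 genes. Acta2 (0.79) and Tagln (0.69) were positive and under 2-fold. For Myh11, smooth muscle myosin, the rise of 1.25 was 0.84, not called, without PD+LY replicate 1. YAP targets showed 1 rise, Fstl1 (1.51, from 151 and 134 to 480.0 and 331 CPM), and 1 fall, Ccn1 (-1.04; -0.92 without 4OHT replicate 2 and -0.94 without PD+LY replicate 2, not called in either), among 20 tested (each 5.0%, against 2.35% higher and 4.90% lower of all tested genes).

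Enzymes that cut matrix, and receptors that hold cells to it, had more falls than rises. Of 32 proteases and inhibitors 6 fell and 1 rose (2 without 4OHT replicate 2, 3 without PD+LY replicate 2). With all libraries 18.8% of this list fell and 3.12% rose, against 4.90% and 2.35% of all tested genes. Mmp10 and Mmp3, stromelysins, had 7.94 and 9.65 and 20.9 and 20.9 CPM in 4OHT and 0.509 and 0.389 and 1.99 and 0.681 CPM in PD+LY. Both PD+LY libraries were below the cAMP libraries as well (5.03 and 4.43 CPM for Mmp10, 17.1 and 11.9 CPM for Mmp3). Mmp10 fell by 4.28 and Mmp3 (-3.98), which became -4.93 without PD+LY replicate 1 and -3.39 without PD+LY replicate 2. Mmp13, a collagenase, fell by 2.69 and Mmp9, a gelatinase (-2.25). Adam12 was the rise (3.60 and 3.02 CPM in 4OHT, 9.78 and 8.56 CPM in PD+LY, 1.47), and Mmp14, a membrane-bound protease, had 0.97, just under 2-fold, and was called without PD+LY replicate 2 (1.18) or 4OHT replicate 2 (1.03). Plaur, a receptor of the plasminogen system, had -0.95, under 2-fold, and was called without 4OHT replicate 2 (-1.01). Integrins had 3 falls among 20, none rising: Itga2, a collagen receptor (7.01 and 7.46 CPM in 4OHT, 1.27 and 0.292 CPM in PD+LY, -3.21; -4.60 without PD+LY replicate 1 and -2.50 without PD+LY replicate 2), Itga3, a laminin receptor (-1.26), and Cd44, a hyaluronan receptor listed with them (-1.60). In the basement membrane list Smoc2 rose by 2.21 (2.82 without 4OHT replicate 2), Lama3 fell by 1.30 and Col17a1 (-1.29), while Col4a1, its most abundant collagen gene, had 0.48.

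Epithelial genes fell in 10 of 38 cases (26.3%, against 4.90% of all tested genes) with no rise (median -0.50). Krt7, a keratin of simple epithelium, had 54.9 and 66.5 CPM in 4OHT, 21.6 and 19.2 CPM in PD+LY and 27.05 and 31.7 CPM in cAMP. Cldn7, a tight junction protein, had 15.9 and 18.4, 4.94 and 3.55 and 22.96 and 29.6 CPM in that order. PD+LY was the lowest group for both genes, and the highest was 4OHT for Krt7 and cAMP for Cldn7. Krt7 fell by 1.57 (SE 0.14), Cldn7 (-2.02), Krt5, a basal keratin (-2.17) and Esrp1, an epithelial splicing factor (-1.64). Cdh1, E-cadherin, had 269 and 292 CPM in 4OHT and 434 and 455 CPM in PD+LY. These groups do not overlap and PD+LY was the higher one, by less than 2-fold (0.67, Benjamini-Hochberg adjusted p 0.000311 in edgeR's quasi-likelihood test), while Epcam, another surface protein of epithelia, had -0.64. Of 15 factors of epithelial-mesenchymal transition 2 fell, Snai3 (-2.29, at 2.67 and 2.52 CPM in 4OHT) and Twist1 (-1.03; -0.68 without PD+LY replicate 2, -1.11 without 4OHT replicate 1 and -0.93 without 4OHT replicate 2, not called in any of these, by DESeq2 or in the fit to 4 libraries). The 2 falls made up 13.3% of this list, against 4.90% of all tested genes, and DESeq2 called 1 gene of the list. Vim, vimentin, had 205 and 229.9 CPM in 4OHT and 119.7 and 116 CPM in PD+LY (-0.88, under 2-fold), and Zeb1 was not called (0.33).

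WNT components had 6 rises (3 without PD+LY replicate 1) and 3 falls (1 without cAMP replicate 1, 1 without 4OHT replicate 1, 0 without 4OHT replicate 2, 0 without PD+LY replicate 2) among 41. With all libraries the rises were 14.6% and the falls 7.32% of this list, against 2.35% and 4.90% of all tested genes. Rspo3, a WNT enhancer, went from 0.334 and 0.165 to 2.24 and 1.85 CPM (3.04, SE 0.55) and Fzd10, a receptor, from 6.27 and 6.20 to 15.8 and 21.4 CPM (1.58). Levels of Rspo3 in 4OHT are near the floor, and 1.20 and 1.75 CPM were found in cAMP. Among 14 WNT feedback targets 2 rose (1 without 4OHT replicate 1, 1 without 4OHT replicate 2, 1 without PD+LY replicate 2) and 2 fell (0 without 4OHT replicate 2, 1 without PD+LY replicate 1, 1 without PD+LY replicate 2), with a median of -0.30. Rises and falls with all libraries were each 14.3% of these targets, against 2.35% and 4.90% of all tested genes. Tnfrsf19 rose (1.26), Lef1 (-0.44) was not called, and Ascl2 fell (-1.33) but was not called without 4OHT replicate 2 (-1.07) or PD+LY replicate 1 (-1.11). Inhbb, an activin subunit, fell from 31.2 and 37.8 to 12.3 and 10.8 CPM (-1.58), Bmp4 (-1.43) and Dll1, a NOTCH ligand (-1.72). Among 22 tested NODAL, activin and TGF-beta genes the falls made up 4.55% with all libraries (median -0.04). That is near the 4.90% of all tested genes. The BMP list had 2 rises (1 without 4OHT replicate 2, 0 without PD+LY replicate 1), among them Id4 (1.15), and 2 falls (1 without 4OHT replicate 2, 1 without PD+LY replicate 1), Bmp4 and Id1 (-1.09), among 26, and the NOTCH list 1 rise (0 without cAMP replicate 1, 0 without cAMP replicate 2, 0 without 4OHT replicate 1, 0 without 4OHT replicate 2, 0 without PD+LY replicate 1) and 2 falls (1 without 4OHT replicate 2, 1 without PD+LY replicate 1) among 19. With all libraries the shares were 7.69% higher and 7.69% lower in the BMP list and 5.26% and 10.5% in the NOTCH list. Of all tested genes 2.35% were higher and 4.90% lower. Id4 and Id1 were not called without PD+LY replicate 1 (0.71 and -0.83) or without 4OHT replicate 2 (0.80 and -0.87). DESeq2 did not call Id4 either. In retinoic acid metabolism 5 of 17 fell and 2 rose (1 without 4OHT replicate 1, 1 without 4OHT replicate 2, 1 without PD+LY replicate 1, 1 without PD+LY replicate 2). With all libraries 11.8% of this list rose and 29.4% fell, against 2.35% and 4.90% of all tested genes. Aldh1a3, which makes retinoic acid, had 19.7 and 19.1 CPM in 4OHT, 3.31 and 3.65 CPM in PD+LY and 2.33 and 3.22 CPM in cAMP. Here 4OHT stands above both other groups, which lie near each other, and the log2 fold change was -2.47 (SE 0.21). Crabp1, which binds retinoic acid, fell by 1.95 and the receptor Rarg (-1.32). Of 28 tested genes for cAMP signaling and CREB targets 1 rose (0 without 4OHT replicate 1, 0 without PD+LY replicate 1) and 1 fell (2 without 4OHT replicate 1, 3 without PD+LY replicate 2), each 3.57%, against 2.35% higher and 4.90% lower of all tested genes. The fall was Rapgef3, a cAMP-activated exchange factor (-1.85), and the rise Pkia, an inhibitor of protein kinase A (2.21), was not called without 4OHT replicate 1 (1.75) or PD+LY replicate 1 (1.86) and had 3.03 without 4OHT replicate 2 (4 and 12 counts in 4OHT). Nr4a1, an immediate target of cAMP, had -0.93, under 2-fold but called without PD+LY replicate 2 (-1.04). Guidance genes had 3 falls among 46 (6.52%, against 4.90% of all tested genes), led by Sema7a (10.7 and 11.96 CPM in 4OHT, 1.94 and 1.99 CPM in PD+LY, -2.53).

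Among 18 naive pluripotency genes 1 rose and none fell (median 0.15), and among 21 core and primed genes 3 fell and none rose (-0.33). These shares were 5.56% and 14.3%, against 2.35% higher and 4.90% lower of all tested genes. At an adjusted p under 0.05 in edgeR and no fold limit 8 naive genes were positive and 2 negative (44.4% and 11.1%). Of the core and primed genes 5 were positive and 8 negative (23.8% and 38.1%), against 10.7% and 12.1% of all tested genes. Dppa3, a germline and naive-state gene, had 75.7 and 74.1 CPM in 4OHT, 230.0 and 234 CPM in PD+LY and 68.6 and 76.1 CPM in cAMP. Both PD+LY libraries stand apart from the other 4, which lie close together, and Dppa3 rose by 1.63 (SE 0.10, Benjamini-Hochberg adjusted p 1.48e-06 in edgeR's quasi-likelihood test). Nanog, a core factor of the naive state, had 473 and 411 CPM in 4OHT and 692 and 644 CPM in PD+LY (0.60, under 2-fold). The RNA-binding gene Lin28a had 158 and 171, 74.8 and 65.7 and 342 and 375 CPM in 4OHT, PD+LY and cAMP. Dnmt3l, a cofactor of DNA methylation, had 197 and 245, 80.6 and 96.3 and 238 and 277 CPM in the same order. PD+LY was the lowest group for both, and the log2 fold changes were -1.23 for Lin28a, -1.32 for Dnmt3l and -2.0 for Pou3f1, a primed-state factor. Sox2 (0.33) and Klf4 (0.32) differed by less than 2-fold, and Pou5f1 was not called (-0.09). Pluripotency genes have processed pseudogenes, which makes their counts uncertain. Prdm1, a germline and endoderm factor, rose by 1.17.

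Markers of several cell types were summed in each library. Summed over 15 mesenchymal markers the level was 2310 and 2420 CPM in 4OHT and 4930 and 4170 CPM in PD+LY, with 5 rises and 2 falls (1 without 4OHT replicate 1, 1 without 4OHT replicate 2, 1 without PD+LY replicate 2) among 15 tested and Col1a1 as the most abundant. Thyrocyte markers summed to 568 and 761 CPM in 4OHT and 1990 and 993 CPM in PD+LY, Tg being the most abundant, with 6 of 11 tested rising, and Duox2 at 0.867 and 1.10 and 1.07 and 0.340 CPM in the same groups. Lung epithelium markers summed to 702 and 743 CPM in 4OHT and 529 and 542 CPM in PD+LY. Etv5 was the most abundant of them and was not called (0.24), and 5 of 11 tested fell (3 without PD+LY replicate 2). The mesenchymal sum was thus higher in both PD+LY libraries. Without Col3a1 that sum was 1860 and 1900 CPM in 4OHT and 3550 and 2890 CPM in PD+LY. Of the 15 mesenchymal markers 9 were positive and 6 negative (median 0.40). The 2 falls with all libraries were Pdgfrb (-1.26) and Twist1 (-1.03). Without Sftpb the lung sum was 505 and 528 CPM in 4OHT and 517 and 533 CPM in PD+LY, with Etv5 at 339 and 343 and 385 and 424 CPM, and 8 of 11 markers were negative (median -1.16). The thyroid sum was higher with a wide gap between PD+LY replicates. Sftpb, surfactant protein B, had 197 and 215 CPM in 4OHT and 11.7 and 8.71 CPM in PD+LY (-4.34, SE 0.14, Benjamini-Hochberg adjusted p 1.6e-08 in edgeR's quasi-likelihood test), and Scgb3a2, of airway secretory cells, fell by 2.97. Endothelial markers summed to 267 and 274 CPM in 4OHT and 227 and 227 CPM in PD+LY, Pecam1 being the most abundant, with 3 of 13 falling (1 without 4OHT replicate 2, 1 without PD+LY replicate 2), among them Plvap (-1.71). Neural markers summed to 156 and 157 CPM and then 118 and 130.0 CPM, with Stmn2 as the most abundant (-1.43, from 74.5 and 75.04 to 25.8 and 29.5 CPM). Of 13 tested neural markers 4 fell (2 without 4OHT replicate 2), while 7 were positive and the median was 0.31. Without Stmn2 the neural sum was 81.6 and 82.4 CPM in 4OHT and 92.5 and 101 CPM in PD+LY. Visceral endoderm markers, with Ttr as the most abundant, summed to 576 and 623 CPM in 4OHT and 633 and 609 CPM in PD+LY (without Ttr 316 and 348 and then 264 and 227 CPM, with 10 of 14 markers negative and a median of -0.77), and 3 of 14 fell, with Amn, a receptor subunit for vitamin uptake, at -1.94. These 3 sums overlapped or shrank by less than 2-fold. Cardiomyocyte markers (most abundant Ryr2) summed to 28.4 and 29.1 CPM in 4OHT and 21.7 and 21 CPM in PD+LY, and macrophage markers (most abundant Cd68) to 60.7 and 70.2 and to 33.7 and 35.3 CPM, with Ptprc, Adgre1, C1qa and C1qb at 0 in all 4 libraries. Pluripotent markers, with Dppa5a as the most abundant, summed to 4380 and 4220 CPM in 4OHT and 4370 and 4670 CPM in PD+LY, and germline markers, with Kit as the most abundant, to 873 and 840.0 and to 1250 and 1240 CPM, with 3 of 10 rising. Of the listed markers several are also used by thyroid or pluripotent cells, and the part that cell composition has in the changes of matrix, contractile, epithelial and thyroid genes was not tested.

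**Figure D3:**
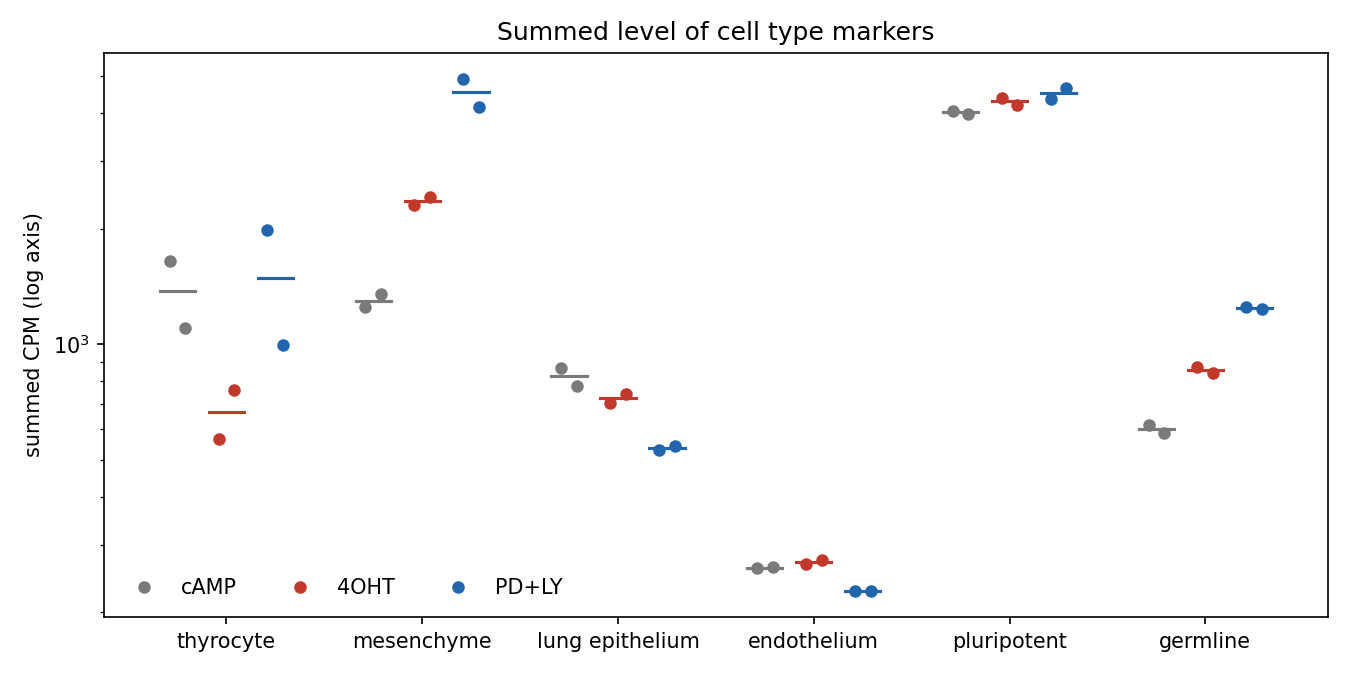
Summed CPM of 6 marker lists in each library on a log axis, with 1 point per library and a short bar at the group mean. Mesenchymal markers are highest in PD+LY (4930 and 4170 CPM) and lung epithelium markers lowest there (529 and 542 CPM).

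Other genes among the largest changes follow, of which Cd248 is also a mesenchymal marker and Dio1 and Dio3 stand in the thyroid list. Emp1, an epithelial membrane protein, had 46.2 and 51.2 CPM in 4OHT, 3.57 and 2.04 CPM in PD+LY and 18.5 and 17.2 CPM in cAMP, a log2 fold change of -4.12 (SE 0.21). Crhbp, which binds corticotropin-releasing hormone, fell from 7.67 and 7.35 to 0.306 and 0.292 CPM (-4.62) and Optc, opticin, a leucine-rich matrix protein, from 21.5 and 18.2 to 0.968 and 1.56 CPM (-3.96). In all 3 genes the PD+LY libraries were below every 4OHT and cAMP library. Prss22, a serine protease, had 10 and 0 counts in PD+LY, and its log2 fold change of -4.63 (SE 0.64) was -3.62 without PD+LY replicate 2. Without PD+LY replicate 1 the PD+LY library left has 0 counts of Prss22, so no fold is given. Vsig8 (6.47 and 6.20 CPM in 4OHT, 0.458 and 0.486 CPM in PD+LY, 0.377 and 0.244 CPM in cAMP), Mymx, a fusion peptide of muscle (-3.70), and Iqca (-3.58) also fell, and for Vsig8 the PD+LY and cAMP levels lie near each other. Among the rises, Saa3, an acute phase protein, had 14.5 and 14.7 CPM in 4OHT, 84.2 and 77.6 CPM in PD+LY and 14.03 and 8.82 CPM in cAMP. Lrrc15, a membrane protein of activated fibroblasts, had 7.01 and 5.70, 42.2 and 39.8 and 9.56 and 7.94 CPM in that order. PD+LY was the highest group for Saa3 and Lrrc15, which rose by 2.47 (SE 0.18) and 2.69 (SE 0.17). Cd248, a pericyte and fibroblast protein, rose by 2.73, Asic2, an acid-gated sodium channel, by 2.42, Cadm3, an adhesion molecule of neurons, by 2.42, Popdc2 by 2.56, Pde1a, a cyclic nucleotide phosphodiesterase, by 2.21, Naalad2 by 2.15 and Olfml2b by 2.10. The deiodinases Dio3, which inactivates thyroid hormone, and Dio1 had 1.20 and 1.04 and 1.27 and 1.04 CPM in 4OHT and 7.74 and 8.36 and 6.67 and 3.45 CPM in PD+LY, rises of 2.84 and 2.13.

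Some counts of 5 or fewer above include genes outside the rule for named genes, and these were chosen after their values were seen. They are lower in PD+LY except Heyl. Spred3, of the ERK feedback list (-1.68), Pck1, a FOXO target (-2.91, 24 and 27 counts in 4OHT and 4 and 4 in PD+LY), and Stra6, of the retinoic acid list (-1.10), were called with each library left out. The other genes lost the call without at least 1 library. Cdx1, of the WNT feedback list (-2.92), and Sftpd, a lung marker (-1.16), were not called without either 4OHT replicate or PD+LY replicate 2 (-2.49 and -0.71), and Sftpd had -1.78 without PD+LY replicate 1. Sftpa1, another lung marker, had 33 and 23 counts in 4OHT and 0 and 6 in PD+LY and was not called without 4OHT replicate 1. Hes5, a neural marker, had 4 and 14 counts and then 0 and 1, and was not called without 4OHT replicate 2 or PD+LY replicate 1. Robo4, an endothelial marker, had 6 and 17 and then 2 and 0, and was not called without 4OHT replicate 2 or PD+LY replicate 2. Wnt3a, a WNT ligand, had 3 and 5 counts in 4OHT and then 0 and 0, a fall of at least 1.59-fold, and lost its call whichever library was left out. Fgf17, an FGF ligand (14 and 12 counts, then 4 and 4), kept its call, with 1 library left out, without cAMP replicate 1 alone, and Heyl, of the NOTCH list (5 and 8, then 39 and 19), without PD+LY replicate 2 alone.

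Counting without strand cannot separate reads where exons of 2 genes overlap, and this touches some of the genes named above. Exons on the other strand overlap those of Ankrd37, Aspn, Bcl6, Bmp4, Braf, Cars, Ccnd1, Cd274, Cdkn1a, Cebpd, Col4a1, Dio2, Dll1, Dnmt3l, Erbb2, Ereg, Esrp1, Fgf15, Fosl1, Foxe1, Foxo1, Hes5, Id4, Jun, Junb, Krt5, Krt7, Lama3, Lef1, Lin28a, Lox, Lss, Naalad2, Nrg1, Pax8, Pou3f1, Pou5f1, Rapgef3, Rspo3, Slc2a1, Spred3, Tagln, Tap1, Tg, Vcam1 and Zeb1. 271 of all 1107 changed genes have such an overlap.

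Promoters of the changed genes were searched for 7 short motifs on both strands, in windows of 300 bases from 250 before to 50 after the RefSeq start (build GRCm38.p6). Windows were found for 260 of 359 risen, 546 of 748 fallen and 11974 of 15256 tested genes. The AP-1 motif TGANTCA occurred in 9.84% of the 691 promoters of fallen genes, 6.34% of the 331 of risen genes and 5.3% of all 15199. The ETS motif CCGGAAG was found in 5.21%, 5.14% and 15.5% of promoters in the same order. No difference between these shares was tested. In that order, the FOXO motif TGTTTAC was in 3.04%, 2.11% and 2.6%, the CRE motif TGACGTCA in 1.88%, 2.42% and 2.89%, and the E-box CACGTG in 6.8%, 8.46% and 9.67%. The ATF4 motif TGATGNAA was in 3.18%, 3.32% and 2.3% and the TEAD motif GGAATG in 15.2%, 14.2% and 12.5%. Matches of different motifs shared bases in 55 of the tested promoters, and a match describes letters, not a site that a factor uses.

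The promoters of Dusp6, Etv1 and Trim63 are printed to show what these windows hold for the ERK feedback, ETS and FOXO target genes with the largest falls among those with a mean of at least 20 counts for which a RefSeq window could be shown. They lie on the plus strand at chr10:99262981-99263280, chr12:38779832-38780131 (the first of 2 windows for Etv1) and chr4:134314870-134315169 of GRCm38.p6, and motif letters are in capitals. That of Dusp6 holds none of the 7 motifs, that of Etv1 a TEAD match, and that of Trim63 a FOXO and a TEAD match. The log2 fold changes of these genes were -2.45, -1.77 and -1.76.
Dusp6: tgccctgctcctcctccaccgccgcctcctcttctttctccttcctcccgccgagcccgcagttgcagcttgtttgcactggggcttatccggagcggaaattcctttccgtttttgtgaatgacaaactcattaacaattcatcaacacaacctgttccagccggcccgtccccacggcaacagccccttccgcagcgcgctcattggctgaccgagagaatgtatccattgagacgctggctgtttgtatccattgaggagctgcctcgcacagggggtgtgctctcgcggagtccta
Etv1: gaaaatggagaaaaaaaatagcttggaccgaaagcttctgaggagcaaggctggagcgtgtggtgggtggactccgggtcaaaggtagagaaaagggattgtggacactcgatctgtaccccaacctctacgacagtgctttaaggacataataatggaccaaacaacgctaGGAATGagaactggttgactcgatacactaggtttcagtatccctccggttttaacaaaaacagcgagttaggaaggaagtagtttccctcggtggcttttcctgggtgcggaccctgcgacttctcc
Trim63: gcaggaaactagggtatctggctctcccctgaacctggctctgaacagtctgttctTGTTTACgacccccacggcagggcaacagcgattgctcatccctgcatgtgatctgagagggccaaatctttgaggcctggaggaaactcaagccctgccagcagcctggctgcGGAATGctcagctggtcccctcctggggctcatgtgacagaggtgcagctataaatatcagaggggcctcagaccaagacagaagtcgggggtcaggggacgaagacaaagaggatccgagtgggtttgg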

How the data were processed

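Per the labels and the study's methods, the bulk RNA-seq data went through Trimmomatic, HISAT2 (genome mm10) and HTSeq, which ignored strand although the library kit is stranded, and the authors deposited raw counts for 25239 genes in 6 samples. Values here were computed from these counts in R 4.3.3 with edgeR 4.0.16: filterByExpr (minimum count 10, minimum total 15) kept 15256 genes, TMM scaled the libraries, and 1 quasi-likelihood model with 3 groups was fitted to all 6 libraries, with Benjamini-Hochberg adjustment over all tested genes. SE is the log2 fold change divided by the square root of the F statistic. CPM uses TMM-scaled totals, and the floor of 3 counts (0.146 to 0.2 CPM) covers counting error only. Replicates differed beyond counting noise (chi-square per degree of freedom 4.63 in 4OHT and 18.4 in PD+LY). Alternatives were DESeq2 1.42.0, RLE size factors, other filters, only 4 libraries, a replicate block, no fold limit and leaving out each library. Overlaps of exons come from GENCODE M21 and promoters from RefSeq. Members, lists and the rule for named genes were chosen with earlier results of these data known. Named genes have the 15 largest changes per direction (mean of at least 50 counts), the 3 largest per direction in a list (at least 20 counts), or were preset for a list. Some items are withheld and not reported here. Without them this rule yields 297 tested genes, of which 186 are named in the main text and others only among the values that changed sign. Another 11, needed to complete counts of 5 or fewer, were chosen after their values were seen. Those of the rule were picked after their values were seen, with preference for calls that held: 116 of the 138 changed genes named in the main text were called under every alternative that kept them, against 120 of 170 over all of these, so the named genes look more stable than the rule's genes are.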

Additional observations from a re-analysis of the deposited data

How the results depend on the processing

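Leaving out 1 library at a time gave 205 to 426 genes higher and 427 to 750 lower in PD+LY than in 4OHT, the lowest without 4OHT replicate 2, and in such fits the lone library is assumed to vary like the other groups. Without a fold limit the counts were 1630 and 1839, since smaller changes then count. The replicate block, which pairs libraries by replicate number, gave 398 and 824, and DESeq2, RLE size factors, the other filters and the fit to 4 libraries gave 302 to 428 and 585 to 834 with it. No changed gene was called in the opposite direction under any of these. Of 170 changed genes that the rule for named genes yields, 120 were called under every alternative that kept them. Where a count of list genes in the report moved by over 1.5 times without 1 library, that count or the gene behind it is given there. The values that changed sign belong to genes that were not called. Their log2 fold changes ranged, with 1 library left out, from -0.10 to 0.04 for Akt1, from -0.20 to 0.58 for Ankrd1, from -0.19 to 0.20 for Axin2, from -0.53 to 0.01 for B2m, from -0.86 to 0.18 for Bcl2, from -0.07 to 0.07 for Bcl2l11, from -0.32 to 0.19 for Crem, from -1.52 to 0.12 for Duox2, from -0.02 to 0.04 for Erbb3, from -0.02 to 0.19 for Esrrb, from -0.75 to 0.37 for Fgf5, from -0.22 to 0.05 for Fn1, from -0.05 to 0.14 for Hhex, from -0.17 to 0.07 for Hk2, from -0.12 to 0.16 for Insr, from -0.68 to 0.11 for Irs1, from -1.43 to 0.99 for Isg15, from -0.49 to 0.22 for Itga11, from -0.09 to 0.15 for Lamp1, from -0.42 to 0.17 for Lum, from -0.09 to 0.35 for Map2k2, from -0.20 to 0.01 for Mapk3, from -0.07 to 0.14 for Mcm2, from 0.00 to 0.10 for Mdm2, from -0.19 to 0.16 for Mmp2, from -0.27 to 0.28 for Nfkbia, from -0.08 to 0.46 for Nkx2-1, from -0.02 to 0.23 for Pde4b, from -0.27 to 0.29 for Pdgfra, from -0.25 to 0.29 for Pik3ip1, from -0.26 to 0.06 for Pou5f1, from -0.14 to 0.06 for Smad7, from -0.06 to 0.08 for Snai1, from -0.20 to 0.35 for Timp3, from -0.13 to 0.03 for Txnip and from -0.03 to 0.20 for Zfp42. Other alternatives turned the sign of Bcl2l11 at -0.01 (at least 10 counts in every library), Erbb3 at 0.00 (at least 10 counts in every library), Mmp2 at 0.00 (no filter), Pik3ip1 at 0.01 (replicate block) and Snai1 at 0.00 (at least 10 counts in every library). The cause was not tested. Depth limits genes under 50 mean counts, which make up 418 of the changed genes.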
